A study of Mus musculus with 2 samples.

Results

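The genes described here are 10 genes of smooth muscle and of pericytes, taken by name from the 24421 gene symbols of the count table. They are the contractile genes Acta2, Actg2, Myh11, Mylk, Tagln, Cnn1 and Smtn, the regulator Myocd, and the pericyte genes Rgs5 and Cspg4. RNA was sequenced from whole-layer skin of wild type C57BL6/J mice, in 1 library of skin put under 33% strain for 5 days with a skin-stretching device (stretched skin) and 1 library of non-stretched skin at day 5 (control skin). The methods give female mice of 8 weeks with resting hair follicles and 33% as the initial strain, to which a daily increase was added, and skin under the glued parts of the device was discarded. The sources used here do not say how many mice a library holds. The study's controls for the test of different strains wore no device, and whether this holds for the sequenced control skin is not stated. There are no replicates, so each interval below covers counting error only, compares these libraries and not the conditions, and carries no p-value. The labels name no smooth muscle or pericyte fraction, so the values are those of the whole tissue, in which fewer cells of a type and less RNA per cell cannot be told apart.

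Smooth muscle cells contract when calcium and calmodulin activate myosin light chain kinase, which phosphorylates the light chains of smooth muscle myosin and lets it pull on smooth muscle actin. In skin these cells form the wall of arteries and veins and the arrector pili muscles, which run from the hair follicle bulge to the upper dermis, and contractile cells also ensheath the hair follicle. Pericytes are their relatives on capillaries. Fibroblasts of a wound that switch on Acta2 are called myofibroblasts. Many contractile genes are driven by serum response factor (SRF), which binds a short element called the CArG box, together with its cofactor myocardin.

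Sequences were examined first, because 2 of the members are actins and actin genes are much alike in their coding parts. The 76 coding bases of Acta2 with the fewest mismatches, summed over the other muscle actins, are shown with the matching bases of Actg2. Capitals mark bases that differ from Acta2.
Acta2: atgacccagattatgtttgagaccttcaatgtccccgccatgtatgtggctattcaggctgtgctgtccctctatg
Actg2: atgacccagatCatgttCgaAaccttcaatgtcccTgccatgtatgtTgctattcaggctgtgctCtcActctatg
In this stretch 7 bases separated Actg2 from Acta2, and the fewest in any window of that length was 5. Over all 1059 windows of read length (76 bases) in the coding sequence of Acta2, the fewest mismatches to any of 5 other actins was 3, to Actg1. For the 1056 windows of Actg2 the fewest was also 3. TopHat2 allows 2 mismatches in a read by default, so no full-length read from these coding sequences matches another of these actins within that limit.

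Of the 10 members, 7 shared no 76-base stretch with another gene of GENCODE M21. The exceptions were Tagln, with 53.1% of its stretches shared, Smtn with 6.45% and Mylk with 3.52%, in each case with genes that overlap it on the other strand. The exons of Tagln overlap those of the antisense gene Gm48529, which is not in the table, and, at one end, those of Pcsk7, so that 67.9% of its exonic bases are shared. Pcsk7 had 633 counts in control and 506 in stretched skin (log2 fold change -0.04, interval -0.21 to 0.13). The counting program and its use of strand are not named in the sources used here, so the values of Tagln are the least certain of the 10, and those of Smtn and Mylk are uncertain to a lesser degree.

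RefSeq promoters, from 250 bases before the start of a gene to 50 after it, were at hand for 6 members (Acta2, Mylk, Cnn1, Smtn, Rgs5 and Cspg4). Those of Mylk (chr16:34784700-34784999) and Smtn (chr11:3539243-3539542) lie inside the GENCODE span of the gene, so its outermost start was not examined. None of the 6 promoters held a full CArG box, which 1.63% of all 32851 promoters held. With 1 base of the box allowed to differ, elements were found in Acta2 and Cspg4, against 21.1% of all promoters. The stretches are shown 5′ to 3′ on the strand of the gene, in GRCm38.p6 (the assembly of mm10), with the elements in capitals.
Acta2, chr19:34255438-34255467, minus strand: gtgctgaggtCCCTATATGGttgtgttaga
Acta2, chr19:34255388-34255417, minus strand: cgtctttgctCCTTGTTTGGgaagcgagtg
Cspg4, chr9:56864856-56864886, plus strand: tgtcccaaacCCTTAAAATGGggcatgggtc
The Acta2 elements begin 84 and 34 bases before the RefSeq start and lie inside the first exon of a longer GENCODE transcript. The capitals in Cspg4 hold 2 overlapping elements that begin 238 and 237 bases before the start, upstream of the GENCODE gene. A match describes these letters and is not a measured binding site.

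The 10 genes together took up almost the same part of both libraries. They held 14014 of 14152379 counts in control skin, or 990.2 CPM (counts scaled to a library total of 1000000), and 11655 of 11648655 counts in stretched skin, or 1000.5 CPM. Beneath this even sum, Actg2, Cnn1, Myh11, Mylk and Acta2 had counting intervals wholly above 0, Smtn, Tagln and Cspg4 had intervals wholly below 0, and those of Rgs5 and Myocd included 0. The median log2 fold change of the 10 was 0.11, against -0.12 over all 16255 genes with more than 3 counts in at least 1 library. Among those genes the interval lay above 0 for 18.1% and below 0 for 33.5%.

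No member reached the study's threshold for a changed gene when that rule was applied to FPKM values computed here from the counts. By the rule the product of both FPKM values (CPM per kilobase of exon), with 1 added to each here, must exceed 10, and the libraries must differ at least 2-fold. It could be applied to 9 members, all but Myocd, and called 0 of them higher and 0 lower. Over all genes it called 2.61% of 10910 higher and 2.44% lower, so a count of 0 in 9 genes lies near the background. In CPM, with nothing added, Cnn1 was the furthest of these 9 genes above control skin, at 1.57-fold, and Smtn the furthest below, at 1.49-fold lower.

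**Figure D1:**
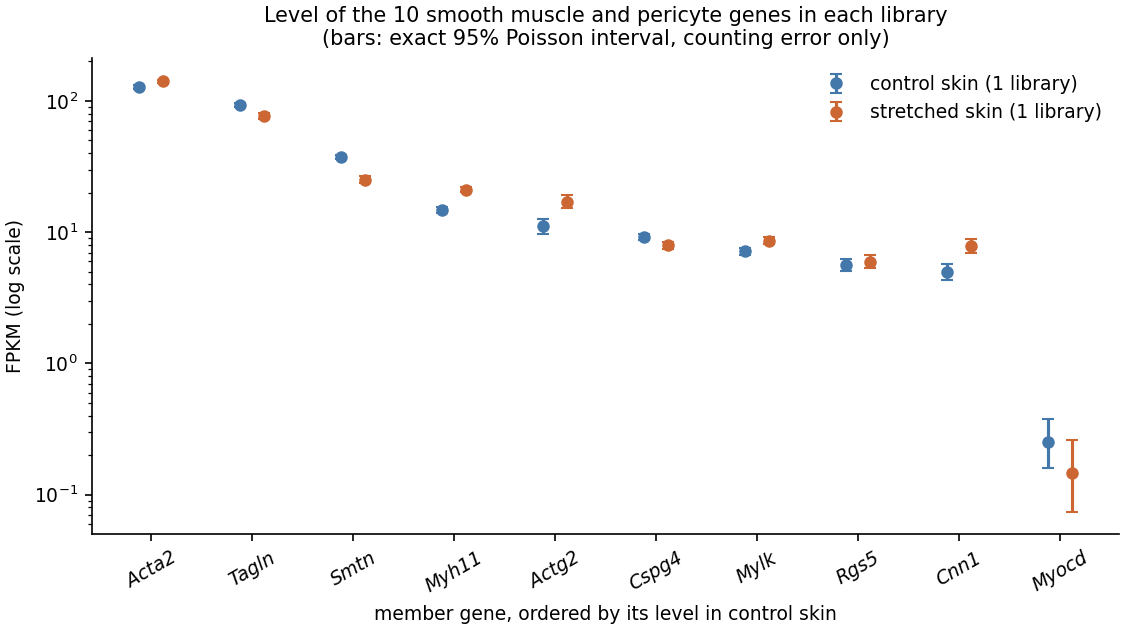
FPKM on a log axis for each of the 10 genes in control skin (blue) and stretched skin (orange), 1 library each, with exact 95% Poisson intervals as bars. Acta2 had the highest level in both libraries (128 and 141 FPKM) and Myocd the lowest (0.253 and 0.147 FPKM).

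Compared per length of exon, the levels spanned a wide range and kept much of their order. In control skin the order was Acta2 (128 FPKM), Tagln (92.7), Smtn (37.5), Myh11 (14.8), Actg2 (11.1), Cspg4 (9.16), Mylk (7.13), Rgs5 (5.64), Cnn1 (5.01) and Myocd (0.253). Rgs5 and Cnn1 were the only neighbours in that order whose counting intervals overlapped. In stretched skin the first 5 places were the same, with Acta2 at 141 FPKM, Tagln at 76.7, Smtn at 25.2, Myh11 at 21.1 and Actg2 at 17.0. The next 3 genes, Mylk (8.64), Cspg4 (7.94) and Cnn1 (7.84), were neighbours with overlapping intervals, and Rgs5 (5.97) and Myocd (0.147) came last. With the length of the longest transcript in place of all exons, Cspg4 stood above Actg2 in control skin (13.5 and 12.9 FPKM).

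**Figure D2:**
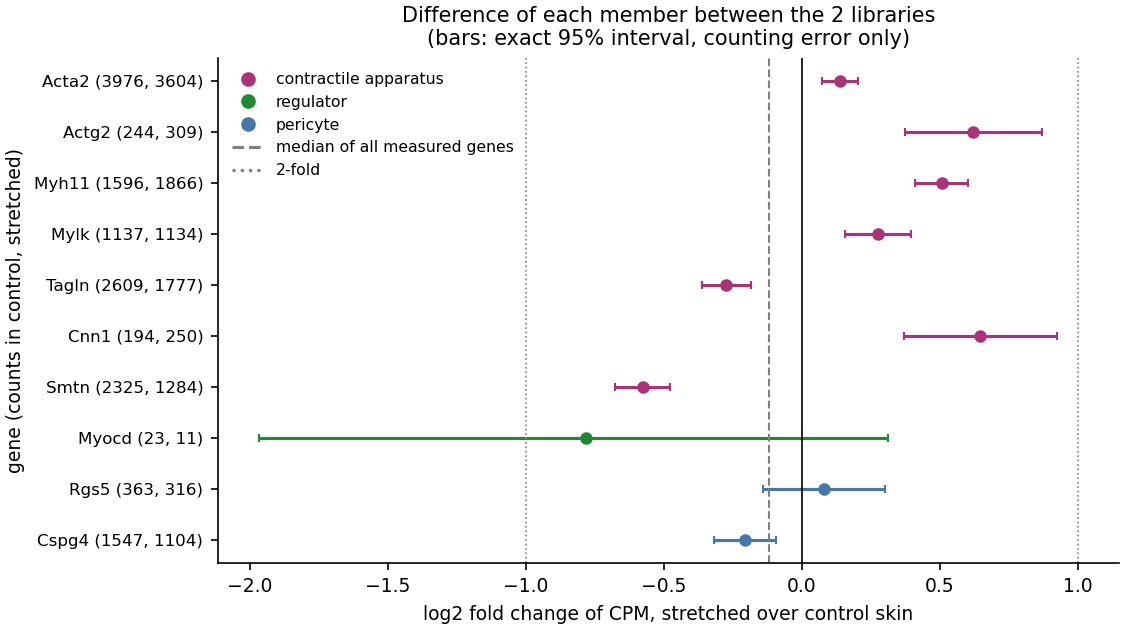
Log2 fold change of CPM in stretched over control skin for each gene, with exact 95% intervals and the counts in control and stretched skin beside each name; the dashed line is the median of all measured genes (-0.12) and the dotted lines mark 2-fold. Every point lies between the dotted lines, from -0.78 for Myocd to 0.65 for Cnn1.

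The smooth muscle actins were both higher in stretched skin, by unequal amounts. Acta2, the alpha actin of vascular smooth muscle and the usual marker of myofibroblasts, had 3976 counts in control skin (281 CPM) and 3604 in stretched skin (309 CPM). Its log2 fold change was 0.14 (interval 0.07 to 0.20), or 1.10-fold. The value depends on scaling, with 0.24 under TMM, 0.25 under median of ratios and 0.24 under upper quartile, all outside that interval. Acta2 lies on chromosome 19 of mm10 from 34241090 to 34255590, on the minus strand. Actg2, the gamma actin best known from the smooth muscle of the gut, had 244 counts (17.2 CPM) and 309 counts (26.5 CPM), a log2 fold change of 0.62 (interval 0.37 to 0.87). It lies on chromosome 6 from 83512905 to 83536265, and the intervals of the 2 actins do not overlap.

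Other actins went several ways. Cardiac actin, Actc1, which is also made by immature skeletal muscle, had 655 counts in control and 1897 in stretched skin (1.82, interval 1.69 to 1.95) and was called higher. Skeletal actin, Acta1, was by far the most abundant actin, with 127849 and 100096 counts (-0.07, interval -0.08 to -0.06), a sign that turns under scalings that shift every value by 0.10 or 0.11. The cytoplasmic actins Actb (0.25) and Actg1 (0.13) were also slightly higher, Actb by more than Acta2 (interval 0.22 to 0.28). Of the 76-base stretches of Actg1, 33.3% also occur in other loci, among them the pseudogene Actg-ps1, and its value is uncertain.

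Smooth muscle myosin and its kinase were also higher in stretched skin. Myh11, the heavy chain found in mature smooth muscle, had 1596 counts in control skin (113 CPM) and 1866 in stretched skin (160.2 CPM), a log2 fold change of 0.51 (interval 0.41 to 0.60). It lies on chromosome 16 from 14194535 to 14291372. Its non-muscle relatives lay below it, since Myh9 stood at -0.30 (interval -0.35 to -0.25), Myh14 at -0.81 (interval -0.90 to -0.72) and Myh10 at -0.08 (interval -0.22 to 0.05).

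Mylk encodes the myosin light chain kinase of smooth muscle, in a long and a short form, and also the small protein telokin, which gene counts do not separate. It had 1137 counts in control skin (80.3 CPM) and 1134 in stretched skin (97.4 CPM), a log2 fold change of 0.28 (interval 0.16 to 0.40). This gene lies on chromosome 16 from 34745210 to 35002420. Its relatives in striated muscle were lower: Mylk2, the skeletal muscle kinase, went from 1681 to 518 counts (-1.42, interval -1.56 to -1.27) and was called lower. Mylk4 went from 446 to 39 counts (-3.23, interval -3.75 to -2.76) but was below the threshold on FPKM, and cardiac Mylk3, with 17 and 9 counts, could not be resolved.

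The actin-binding proteins of the contractile apparatus split into both directions. Cnn1, or calponin, which restrains the ATPase of myosin, had 194 counts in control skin (13.7 CPM) and 250 in stretched skin (21.5 CPM), a log2 fold change of 0.65 (interval 0.37 to 0.92). Its broadly expressed relatives Cnn2 (0.01, interval -0.10 to 0.11) and Cnn3 (-0.05, interval -0.14 to 0.04) had intervals that included 0. Cnn1 lies on chromosome 9 from 22099216 to 22109630.

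Tagln, or transgelin (SM22 alpha), cross-links actin filaments and is used beside Acta2 as a marker of smooth muscle and myofibroblasts. It went the other way, with 2609 counts in control skin (184 CPM) and 1777 in stretched skin (153 CPM), a log2 fold change of -0.27 (interval -0.36 to -0.19). This gene lies on chromosome 9 from 45929619 to 45936058, with the overlap on the other strand described above. Its relative Tagln2, which is expressed in many cells, was higher (0.45, interval 0.39 to 0.52). Neuronal Tagln3 had 83 counts in control and 15 in stretched skin (-2.19, interval -3.09 to -1.38) and was called lower.

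Smtn, or smoothelin, a protein of actin filaments in fully contractile smooth muscle, was the lowest of the contractile genes. It had 2325 counts in control skin (164 CPM) and 1284 in stretched skin (110.2 CPM), a log2 fold change of -0.58 (interval -0.68 to -0.48). This gene lies on chromosome 11 from 3517523 to 3540612. Both smoothelin-like genes were called lower, Smtnl1 with 877 and 299 counts (-1.27, interval -1.47 to -1.08) and Smtnl2 with 790 and 224 counts (-1.54, interval -1.76 to -1.32). Within the smoothelin family all 3 genes had intervals below 0, as 33.5% of all genes did, and Smtn differed least. The value of Smtn carries the limit from overlap on the other strand given above.

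**Figure D3:**
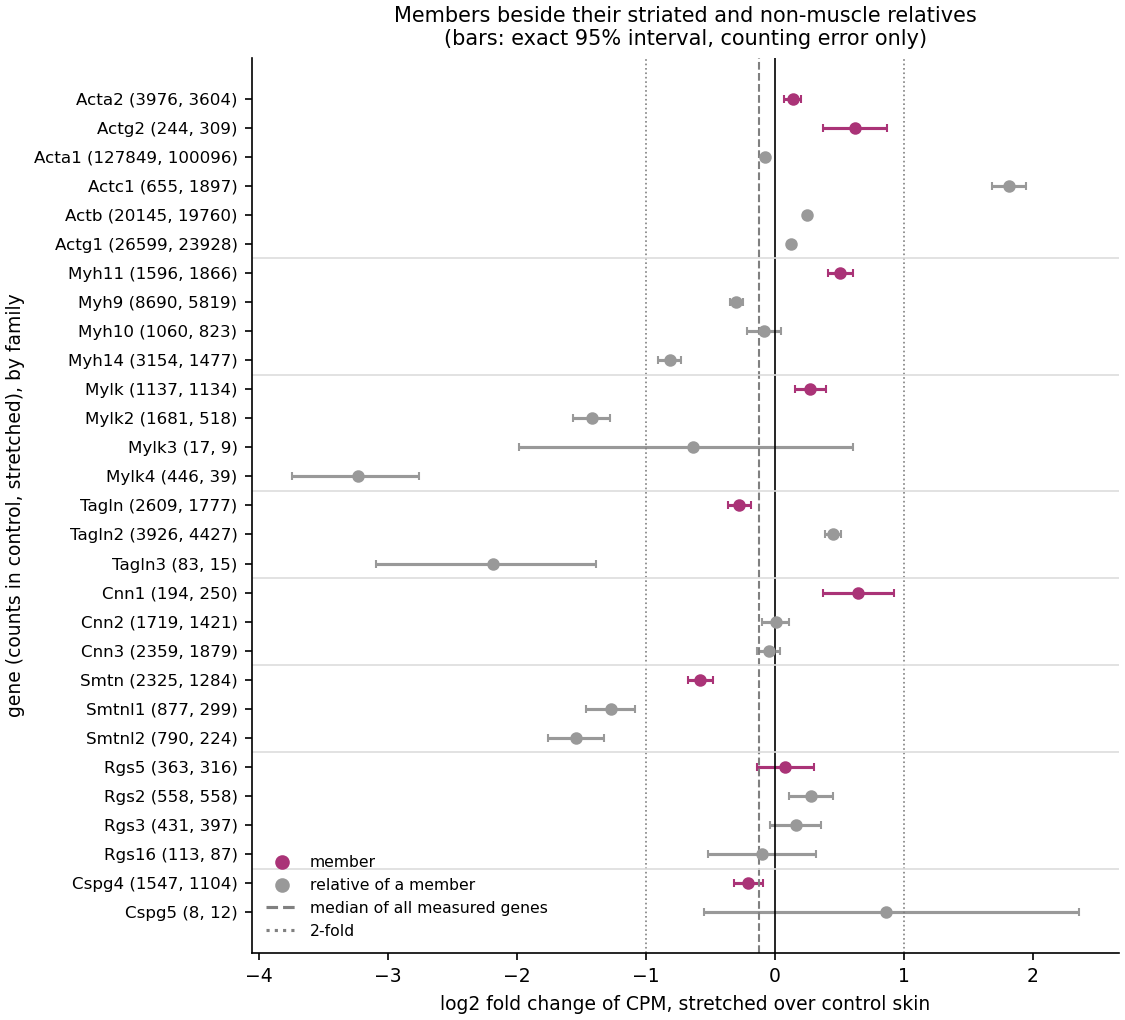
Log2 fold change of CPM in stretched over control skin for the members (purple) and their striated and non-muscle relatives (grey), by family, with exact 95% intervals and the counts in control and stretched skin beside each name. Myh11, Mylk and Cnn1 lie to the right of the relatives in their families that have narrow intervals, while Mylk2, Mylk4, Smtnl1, Smtnl2 and Tagln3 lie left of the 2-fold line and Actc1 right of it.

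The 20 relatives had a median log2 fold change of -0.08, whose sign changed with 3 of the 4 other scalings, and by the study's rule 1 of the 17 that could be tested was called higher and 4 lower. Markers of skeletal muscle, which whole-layer skin contains, moved beside them. All 12 were measured, none was at 0, and 10 had intervals below 0 (4 called lower), while Myh1 (1.10) and Myh2 (1.46), fast myosin heavy chains, were called higher. Another fast myosin, Myh4, went from 6432 to 271 CPM. The markers had a summed level of 35154 CPM in control and 24570 in stretched skin. The 10 markers of developing muscle were all higher, with a sum of 112 CPM in control and 1581 in stretched skin, and Actc1 is 1 of these. The part of skeletal muscle in the values of the members was not tested.

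Myocd, or myocardin, was close to the limit of this depth. It had 23 counts in control skin (1.63 CPM) and 11 in stretched skin (0.944 CPM), a log2 fold change of -0.78 with an interval from -1.97 to 0.31, so a difference was not detectable. This gene lies on chromosome 11 from 65176561 to 65269989. Srf, its partner, was measured far more firmly and had an interval that included 0, with 1363 and 1178 counts (0.07, interval -0.04 to 0.18). The myocardin-related factors Mkl1 (-0.08, interval -0.23 to 0.07) and Mkl2 (-0.14, interval -0.31 to 0.02), which carry actin signals to SRF, also included 0.

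In all, 13 SRF cofactors and modulators of smooth muscle promoters had a median of -0.01, whose sign changed with each of the 4 other scalings. Of these, 4 had intervals above 0 and 3 below, and Crip1, a small LIM protein, was the only gene called, with 1707 counts in control and 3405 in stretched skin (1.28, interval 1.19 to 1.36). Elk1, which competes with myocardin for SRF, was the lowest (-0.39, interval -0.67 to -0.10). Klf4, a repressor of contractile genes that is also abundant in epidermis, stood at 0.18 (interval 0.13 to 0.23).

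The pericyte genes differed little. Rgs5, a regulator of G protein signals that marks pericytes and arterial muscle, had 363 counts in control skin (25.6 CPM) and 316 in stretched skin (27.1 CPM), a log2 fold change of 0.08 (interval -0.14 to 0.30). It lies on chromosome 1 from 169655501 to 169695813. Its relative Rgs2 (558 counts in each library) was higher relative to the library totals (0.28, interval 0.11 to 0.45), and the intervals of Rgs3 (0.16, interval -0.04 to 0.36) and Rgs16 (-0.10, interval -0.52 to 0.32) included 0. Cspg4, the proteoglycan NG2 on the surface of pericytes, had 1547 counts (109 CPM) and 1104 counts (94.8 CPM), a log2 fold change of -0.21 (interval -0.32 to -0.09). With TMM scaling the interval of Cspg4 included 0 (-0.22 to 0.01). It lies on chromosome 9 from 56865033 to 56899870, and NG2 is not particular to pericytes, since glial precursors and some keratinocytes carry it too. Its neural relative Cspg5 had 8 and 12 counts and could not be resolved.

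Another 12 pericyte genes stood at a median log2 fold change of -0.02, whose sign changed with each of the 4 other scalings. Intervals lay above 0 for 4, below 0 for 4 and included 0 for 4, and none was called. At the upper end was Pdgfrb, the receptor that keeps pericytes on capillaries but that fibroblasts express as well, with 1166 counts in control and 1828 in stretched skin (0.93, interval 0.82 to 1.04). At the lower end was Heyl, a target of Notch signalling in mural cells, with 610 and 290 counts (-0.79, interval -0.999 to -0.59). Notch3, the Notch receptor of mural cells, was also lower (-0.40, interval -0.50 to -0.31), and the pericyte channel genes Kcnj8 (-0.18, interval -0.44 to 0.07) and Abcc9 (-0.32, interval -0.49 to -0.15) lay below 0 or included it. Beside Pdgfrb, intervals lay above 0 for Rgs4, a relative of Rgs5 (77 and 107 counts, 0.76, interval 0.32 to 1.20), for Anpep, a surface peptidase also found on fibroblasts (0.27, interval 0.18 to 0.36), and for Ndufa4l2, a mitochondrial protein (0.20, interval 0.02 to 0.37).

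Endothelial markers can be set beside these genes, since pericytes and smooth muscle sit on the same vessels. All 10 markers of blood endothelium were measured, 6 had intervals above 0 and 1 below, and their summed level was 354 CPM in control skin and 472 CPM in stretched skin. The 1 below was Kdr, a receptor for vascular endothelial growth factor, with 442 and 281 counts (-0.37, interval -0.59 to -0.15), whereas the adhesion molecule Pecam1 stood at 0.50 (interval 0.36 to 0.63).

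Ratios of counts within a library do not depend on how the libraries were scaled. Per 100 counts of Acta2, there were 40.1 counts of Myh11 in control and 51.8 in stretched skin, a ratio of 1.29 (interval 1.19 to 1.40). Cnn1 went from 4.88 to 6.94 per 100 counts of Acta2, a ratio of 1.42 (interval 1.17 to 1.73), and Actg2 from 6.14 to 8.57, a ratio of 1.40 (interval 1.17 to 1.67). Thus Myh11, Cnn1 and Actg2 were higher against Acta2 as well. Tagln went from 65.6 to 49.3, a ratio of 0.751 (interval 0.696 to 0.811). Smtn went from 58.5 to 35.6, a ratio of 0.609 (interval 0.561 to 0.662), and Cspg4 from 38.9 to 30.6, a ratio of 0.787 (interval 0.719 to 0.862). The contractile genes therefore stood in other proportions to each other in the 2 libraries. For Rgs5 (0.960, interval 0.818 to 1.13) and Myocd (0.528, interval 0.232 to 1.13) the interval included 1, and that of Mylk (1.10, interval 1.001 to 1.21) only just lay above it.

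A wider list of 18 smooth muscle genes also held differences in both directions. Its median log2 fold change was -0.04, whose sign changed with each of the 4 other scalings, with 5 intervals above 0, 7 below and 6 that included 0, beside 18.1% above and 33.5% below among all genes. Pgm5, a protein of muscle attachment sites, was the only gene called, with 246 counts in control and 461 in stretched skin (1.19, interval 0.96 to 1.42). Ppp1r12b, a targeting subunit of myosin phosphatase known mainly from heart and skeletal muscle, was the lowest, with 243 and 92 counts (-1.12, interval -1.48 to -0.77), and was below the threshold on FPKM.

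Several of the 18 are abundant in striated muscle as well. Des (desmin), one of these, had 15355 and 22724 counts (0.85, interval 0.82 to 0.88), and Synm, another intermediate filament gene, had 2032 and 1086 (-0.62, interval -0.73 to -0.52). Without Tpm1, Tpm2, Des, Synm, Pln, Pgm5 and Synpo2, which striated muscle also expresses, 11 genes remained, with 2 intervals above 0, 5 below and none called. Ppp1r12b, although known mainly from striated muscle, was kept and is among the 5 below, so the 11 are not free of such genes. Of these, Myl9, the regulatory light chain that Mylk phosphorylates, stood at 0.06 (interval -0.06 to 0.17), and Lmod1, the leiomodin of smooth muscle, at -0.51 (interval -0.84 to -0.18).

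Genes that set the tone of smooth muscle, from receptors to channels and kinases, were counted next. Of 19 genes, 18 were measured, and Chrm3, a muscarinic receptor, had 2 counts in each library, under the floor of 3. The median log2 fold change was -0.03, whose sign changed with each of the 4 other scalings, with 2 intervals above 0, 6 below (near the 33.5% of all genes) and 10 that included 0, and none of the 9 that could be tested was called. Agtr1a, an angiotensin receptor, was the highest, with 165 counts in control and 232 in stretched skin (0.77, interval 0.48 to 1.07). Kcnma1, the pore of the large calcium-activated potassium channel, was the lowest, with 118 and 53 counts (-0.87, interval -1.37 to -0.39). The endothelin receptors Ednra (-0.34, interval -0.55 to -0.12) and Ednrb (-0.57, interval -0.69 to -0.45) were both lower, although Ednrb is also a gene of melanocytes and endothelium.

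Genes of the arrector pili muscle and its anchor at the follicle bulge lay mostly above 0. The 7 genes stood at a median log2 fold change of 0.36, with 6 intervals above 0 and none below. Itga8, the integrin of the arrector pili muscle, had 149 counts in control and 157 in stretched skin (0.36, interval 0.02 to 0.69) and is also among the 18 smooth muscle genes above, and its ligand Npnt, which the bulge lays down, had 875 and 1018 (0.50, interval 0.37 to 0.63). Egfl6, with 86 and 71 counts, stood at 0.00 (interval -0.47 to 0.47). Eln, elastin, was the only gene called, with 12949 and 36972 counts (1.79, interval 1.77 to 1.82), and it is made by dermal fibroblasts and vessel walls as well as for the tendons of this muscle. The others were Itga9 (0.64, interval 0.46 to 0.81), Fbln5 (0.36, interval 0.23 to 0.49) and Itgb1 (0.35, interval 0.30 to 0.40). General fibroblast markers had a higher median (0.52) than this list. The part of the muscle in these values was not tested.

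Most genes of myofibroblasts lay further above 0 than Acta2, the actin marker of that state. With Acta2 and Tagln left out, 14 myofibroblast genes stood at a median log2 fold change of 0.97, with 12 intervals above 0 and 1 below, and 6 were called higher and 1 lower. Cthrc1, a secreted protein of activated fibroblasts, had 127 counts in control and 614 in stretched skin (2.55, interval 2.28 to 2.84). Tnc, the matrix protein tenascin C, had 1456 and 4497 (1.91, interval 1.82 to 1.99), and Lox, which cross-links collagen and elastin, had 2914 and 8730 (1.86, interval 1.80 to 1.92). Postn, Thbs1 and Col1a1 were the others called higher. Fap, a protease on the surface of activated fibroblasts, had 353 and 317 counts and stood near Acta2 (0.13, interval -0.10 to 0.35). Lrrc15, also known from myofibroblasts, was the one gene below 0, with 5244 and 1679 counts (-1.36, interval -1.44 to -1.28), and was called lower.

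Against these genes Acta2 was nearly level. Postn, or periostin, stood at 208 counts per 100 counts of Acta2 in control and 442 in stretched skin, a ratio of 2.13 (interval 2.02 to 2.24), and Lox at 73.3 and 242, a ratio of 3.31 (interval 3.11 to 3.52). General fibroblast markers were also higher, with 9 of 10 intervals above 0 and a summed level of 15828 CPM in control and 27187 in stretched skin. The 12 macrophage markers summed to 966 CPM in control and 2280 in stretched skin, and the 9 basal and early epidermal keratinocyte markers to 16569 and 17164 CPM. None of these markers was at 0, and their part in the values of the members was not tested.

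**Figure D4:**
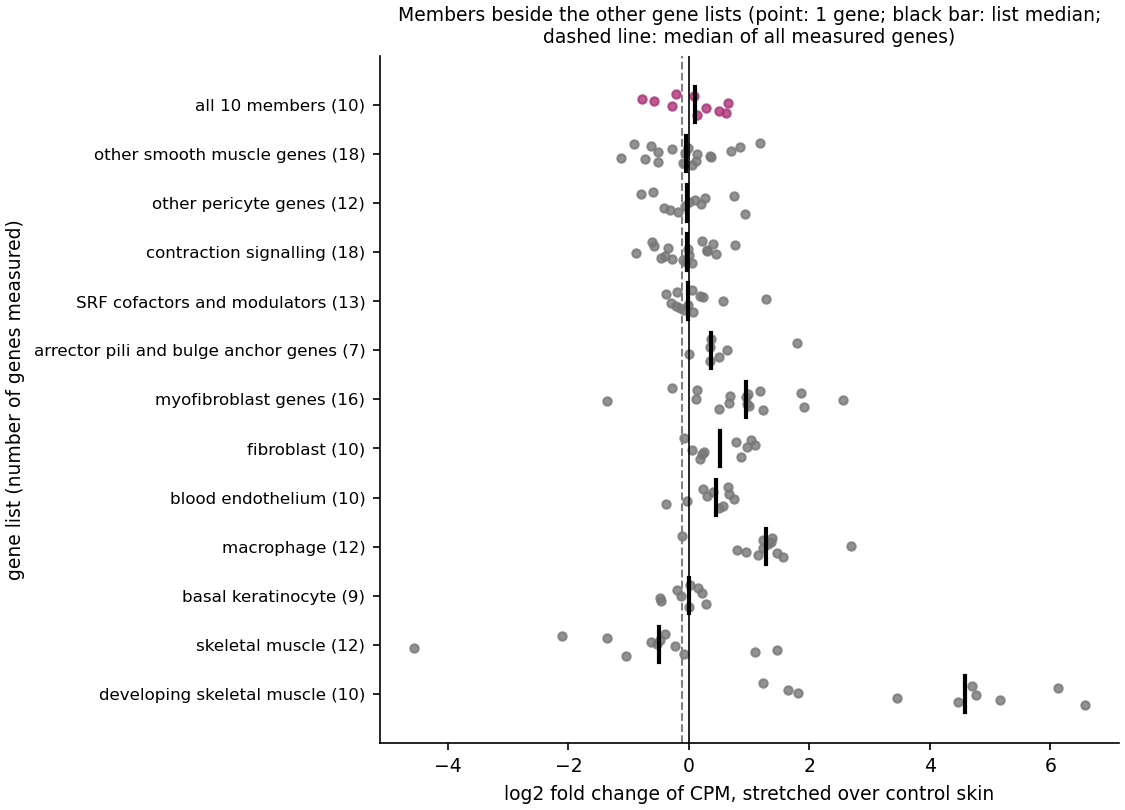
Log2 fold change of CPM in stretched over control skin, 1 point per gene, for the 10 members (purple) and 12 other lists (grey), with the median of each list as a black bar and the median of all measured genes (-0.12) as a dashed line. The members, the other smooth muscle and pericyte genes, the tone genes and the SRF cofactors are centred within 0.11 of 0, whereas the myofibroblast list, which here includes Acta2 and Tagln, is centred at 0.96.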

How the data were processed

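RNA-seq of 1 library of control skin and 1 of stretched skin was analysed. The authors filtered single-end reads of 76 bases, aligned them to mm10 with TopHat2 (named in the submitters' processing notes) and deposited raw counts per gene symbol. The study's own FPKM came from Cufflinks and were not used here; the program that gave the deposited counts, its annotation and its use of strand are not given in the sources used here. Counts were scaled to CPM by the total of each library. FPKM used the union of exons in GENCODE M21 (GRCm38, the assembly of mm10); 23384 symbols matched by name, 650 by synonym and 387 had no length. A count of 3 (0.212 CPM in control skin, 0.258 CPM in stretched skin) was the floor. Fold changes carry exact 95% Clopper-Pearson intervals, and levels exact Poisson intervals. Reads carry no molecular identifiers, so intervals cover counting error only. Without replicates no test was made. Scripts were tested on simulated data.

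The members and all lists were chosen with earlier results of these data known. Named genes are the members, their relatives and, of each other list, called genes and the highest and lowest with an interval off 0, at most 4 a list. Des, Synm, Myl9, Lmod1, Notch3, Kcnj8, Abcc9, Postn, Thbs1, Col1a1, Ednra, Ednrb, Klf4, Srf, Mkl1, Mkl2, Itga8, Npnt, Egfl6, Itga9, Itgb1, Fbln5, Chrm3, Pecam1, Kdr, Rgs4, Anpep, Ndufa4l2, Fap, Myh1, Myh2, Myh4 and Pcsk7 were named, and ratios to Acta2 taken, after their values were seen. Python 3.11.15, scipy 1.17.1, edgeR 4.0.16 and DESeq2 1.42.0 (scaling factors only) were used.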

Additional observations from a re-analysis of the deposited data

How the results depend on the processing

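Each other scaling moves all log2 fold changes by the same amount, namely 0.10 for TMM, 0.11 for median of ratios, 0.10 for upper quartile and 0.06 when the 50 most abundant genes are left out of the totals, and the median of all genes moves from -0.12 to between -0.06 and -0.01. No member changed sign under them, and 28 of 40 values stayed inside the counting interval. The values outside it were those of Acta2, Myh11, Tagln and Smtn under the first 3 of these. Under the same 3 the interval of Cspg4 came to include 0, and those of Cnn2 and Fap came to lie above 0. The intervals of Srf, Myl9 and Rgs3 came to lie above 0 under all 4. Counts of intervals above, below or including 0 are for total counts. The median of the members ranged from 0.11 to 0.22 over all alternatives, among them the median without Tagln, Smtn and Mylk (0.14), chosen after seeing the data. No member was called under any alternative, but these could say little. With a product of FPKM above 100, Cnn1, Cspg4, Mylk, Rgs5 and Myocd could not be tested. Shifts of at most 0.11 could not bring any of the 9 tested members to 2-fold. The myofibroblast median was 1.06 under TMM, 1.07 under median of ratios, 1.06 under upper quartile and 1.02 without the 50 genes. Medians of 5 lists near 0 changed sign with scaling. Of all genes, 137 were called higher and 130 lower with a product of FPKM above 100, and 454 and 442 with CPM in place of FPKM, against 285 and 266; the cause was not tested. The split was 330 and 215 under TMM, 336 and 214 under median of ratios, 329 and 215 under upper quartile and 341 and 262 without the 50 genes. No paired analysis was possible because each group is a single library, and no library could be left out. Depth limits Myocd most.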
